A study of Mus musculus with 34 samples.

Results

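The genes described here encode the proteins of the mitochondrial ribosome (the mitoribosome), read in embryonic mouse lungs with and without overexpression of the RNA-binding protein Lin28A. They were chosen by name: protein-coding genes whose mouse symbol is Mrpl or Mrps followed by a digit, which gave 78 of the 21789 genes in the count table, 49 named for the large subunit and 29 for the small one. A further 3 pseudogenes with such names were left out. All 78 passed the filter on low counts, so no member was lost before testing, and 18319 genes were tested in all. A gene is said to be called, to rise or to fall where its adjusted p in edgeR's quasi-likelihood test was under 0.05.

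Lungs of embryos with Lin28A overexpressed throughout the body (global, tag Vasa in the titles) were collected at embryonic day E12.5 (n = 3), E14.5 (n = 4), E16.5 (n = 3) and E18.5 (n = 5). Lungs with Lin28A in lung epithelial cells (tag Nkx2.1, n = 3) or in mesenchymal cells (tag Wt1, n = 2) were collected at E18.5 only. Control lungs, labelled as having no Lin28A expression, were collected at E12.5 (n = 3), E14.5 (n = 3), E16.5 (n = 3) and E18.5 (n = 5). Doxycycline at 1 g/L of drinking water from day 0.5 is listed for every group, controls included, and the labels describe no alleles, promoters or strain. They do not say that the replicates came from separate animals or litters, so p-values measure the spread between these samples, which may be technical.

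The mitoribosome sits in the mitochondrial matrix and translates the few mRNAs made from mitochondrial DNA, all of which encode membrane subunits of the respiratory chain and ATP synthase. Its RNA comes from mitochondrial DNA, while every one of its proteins is encoded in the nucleus, made on cytosolic ribosomes and imported. Many of the proteins descend from those of bacterial ribosomes and others are found only in mitochondria. Lin28A keeps let-7 microRNAs from maturing and also binds many mRNAs directly. The lung passes in this window from branching growth to the formation of alveolar cells, with falling proliferation.

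Sequence before the RefSeq start is shown for 5 genes on which the results turn. They are the 4 with the largest rise in global lungs at E18.5 and the gene that fell in every E18.5 comparison with control. Each is the 150 bases before the RefSeq start (GRCm38.p6), printed 5′ to 3′ on the gene's own strand, and capitals mark the ETS motif CCGGAAGT or its reverse complement ACTTCCGG. The windows are chr11:120484487-120484636 (plus strand) for Mrpl12, chr9:98601680-98601829 (minus strand) for Mrps22, chr13:99344636-99344785 (plus strand) for Mrps27, chr19:4962156-4962305 (plus strand) for Mrpl11 and chr17:45686199-45686348 (plus strand) for Mrpl14.
Mrpl12: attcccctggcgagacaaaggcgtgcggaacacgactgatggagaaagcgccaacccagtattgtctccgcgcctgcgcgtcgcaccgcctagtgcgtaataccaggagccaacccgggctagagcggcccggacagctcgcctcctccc
Mrps22: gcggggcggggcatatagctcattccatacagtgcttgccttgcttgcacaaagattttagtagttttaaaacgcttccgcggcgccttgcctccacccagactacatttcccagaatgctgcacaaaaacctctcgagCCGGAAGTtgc
Mrps27: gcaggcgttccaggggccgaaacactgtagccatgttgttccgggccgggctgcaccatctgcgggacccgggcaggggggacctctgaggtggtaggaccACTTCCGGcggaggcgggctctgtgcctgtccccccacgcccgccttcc
Mrpl11: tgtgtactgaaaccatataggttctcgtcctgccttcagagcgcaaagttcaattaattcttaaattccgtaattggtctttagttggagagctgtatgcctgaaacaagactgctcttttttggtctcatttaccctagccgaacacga
Mrpl14: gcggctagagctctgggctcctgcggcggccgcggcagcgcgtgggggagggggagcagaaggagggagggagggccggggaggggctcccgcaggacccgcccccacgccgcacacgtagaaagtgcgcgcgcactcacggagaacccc
Both Mrps22 and Mrps27 carry the ETS motif in this stretch, and no letters of Mrpl12, Mrpl11 or Mrpl14 are in capitals.

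RefSeq windows of 300 bases (250 before to 50 after the start) were matched for 69 of the 78 genes by symbol and for 17492 protein-coding genes in all. On either strand, the ETS motif CCGGAAGT was in the windows of 17.4% of the 69 genes and of 5.69% of all genes. The YY1 motif AAGATGGCG was in 11.6% of the 69 and 2.14% of all, and the NRF1 motif GCGCATGCG in 10.1% and 2.61%. The E-box CACGTG was in 7.25% of the 69 and 8.91% of all, and TATAAA in 7.25% and 14.8%. These shares are descriptions of letters in a window, not of bound sites, and none of these motifs contains another. The ETS motif was present in genes that rose at E18.5 (Mrps22, Mrps27, Mrpl3) and in genes called in none of the 6 comparisons of Lin28A with control lungs (Mrpl27, Mrpl33, Mrpl43).

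Total counts per library lay between 7147301 and 17624884, of which 14423 to 61370 counts (0.198 to 0.419%) fell on the 78 genes. Lin28a itself was at 289 to 1301 CPM (counts scaled to the normalized library size) in the 20 transgenic libraries and 0.192 to 4.15 CPM in the 14 control libraries. Some libraries carried markers of neighbouring organs. At E14.5 the summed thymus markers were at most 8.87 CPM in the global libraries and reached 390 CPM in control library 3, and the summed kidney markers reached 506 CPM in global library 4. At E12.5 the summed heart muscle markers were 2608, 75.8 and 131 CPM in the global libraries and 747, 3119 and 3058 CPM in the controls. At E18.5 the summed hepatocyte markers were 814 CPM in control library 1 and 1.25 to 25.8 CPM in the other controls. Without that library 65 members were called higher in global, 7 in epithelial and 56 in mesenchymal lungs against control. Of 18213 genes tested in that fit, 11378, 5688 and 9485 were called in either direction, in the same order. For some comparisons that use the E14.5 and E12.5 libraries named here, a count or median without them is also given. At E18.5, control libraries 1 and 2 and global library 1 held 3737 to 11028 CPM of Lars2 against 198 to 1267 CPM in the other 12 libraries.

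Levels differed widely among the members. The mean over all libraries was 0.733 CPM for Mrpl53 and 79.0 CPM for Mrpl13, with a median of 38.6 CPM over the 78 genes. Per kilobase of exon, the highest mean levels were those of Mrpl34 (63.4 CPM per kb), Mrpl54 (57.1 CPM per kb) and Mrpl52 (55.0 CPM per kb), all small proteins of the large subunit. The lowest were Mrpl53 (0.928 CPM per kb), Mrpl23 (1.22 CPM per kb) and Mrpl48 (3.05 CPM per kb). Mrpl53 rested on 3 to 20 counts per library, and 88.0% of its exon bases lie under exons of Gm42688 and Ccdc142os. The strandedness of the counting is not given in the sources used here, so reads of overlapping genes cannot be told apart. The members with over 20% of their exon bases under other genes numbered 10: Mrpl19, Mrpl24, Mrpl43, Mrpl47, Mrpl53, Mrps18b, Mrps18c, Mrps25, Mrps27 and Mrps34.

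**Figure D1:**
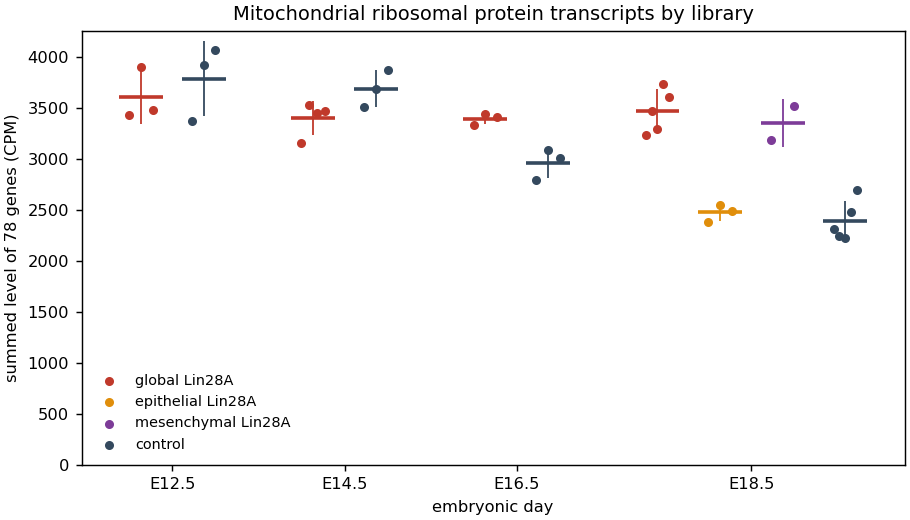
Summed level of the 78 genes (CPM) in each library by embryonic day, with points for libraries, horizontal bars for group means and vertical bars for 1 SD. Control libraries lie lower at each later day after E14.5, to 2393 CPM on average at E18.5, whereas global and mesenchymal libraries average 3469 and 3353 CPM there and epithelial libraries 2474 CPM.

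In control lungs the mitoribosomal transcripts fell as development advanced. Their summed level averaged 3787 ± 367 CPM at E12.5, 3689 ± 178 CPM at E14.5, 2962 ± 149 CPM at E16.5 and 2393 ± 196 CPM at E18.5 (SD, n = 3, 3, 3 and 5). Between E12.5 and E14.5 none of the 78 passed edgeR's quasi-likelihood test at an adjusted p under 0.05, while 11.1% of all tested genes were called higher and 5.33% lower. Unadjusted, 3 were higher and 4 lower at p under 0.05, and DESeq2 called 1 higher and 2 lower. In that step 2 genes were called higher without E12.5 control 2 and 1 without E12.5 control 3. From E14.5 to E16.5, 43 of the 78 fell (55.1%) and none rose, against 17.7% of all genes called lower and 18% higher, and the median log2 fold was -0.32 over the members and -0.01 over all genes. From E16.5 to E18.5, 43 fell (55.1%) and none rose, against 19.1% of all genes called lower and 17% higher, with medians of -0.31 and 0.00. For higher calls, 1 gene in each of these steps had an unadjusted p under 0.05, and DESeq2 called 0 in the first and 1 in the second, as did edgeR for the second without E18.5 control 3. The first count was 28 without E16.5 control 1 and 33 without E14.5 control 3. Both steps use the E16.5 controls, so their values are not independent of each other.

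The largest falls in the first step were those of Mrps18b, 1 of 3 related S18 proteins (log2 fold -0.87 ± 0.15, adjusted p = 3.6e-05), Mrpl12, the L7/L12 protein of the stalk that recruits translation factors (-0.79 ± 0.15, adjusted p = 0.000125) and Mrps22, a small-subunit protein found only in mitochondria (-0.70 ± 0.15, adjusted p = 0.000577). A ± gives the standard error of a log2 fold or the SD of a level. In the second step they were those of Mrps27, a small-subunit protein with no bacterial counterpart (-0.80 ± 0.11, adjusted p = 8.88e-07), Mrpl19 (-0.74 ± 0.10, adjusted p = 2.21e-06) and Mrps22 (-0.73 ± 0.14, adjusted p = 0.000122). Control Mrps22 had 36.1, 39.5 and 45.0 CPM at E12.5, 31.2, 35.8 and 39.6 CPM at E14.5, 20.6, 20.6 and 24.3 CPM at E16.5 and 11.2, 9.52, 12.4, 15 and 16.9 CPM at E18.5. Its libraries of the last 3 stages do not overlap between stages. Of the proliferation list (cell cycle genes), 19 of 23 genes fell in the first step and 23 of 23 in the second. Over E14.5, E16.5 and E18.5 in controls, mean summed levels were 2113, 9158 and 17388 CPM for the lung epithelium markers, 2530, 11401 and 7226 CPM for the erythroid markers and 115, 192 and 670 CPM for the leukocyte markers. Their part in the members' fall was not tested. In whole lung, fewer cells of a type and less RNA per cell cannot be told apart.

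**Figure D2:**
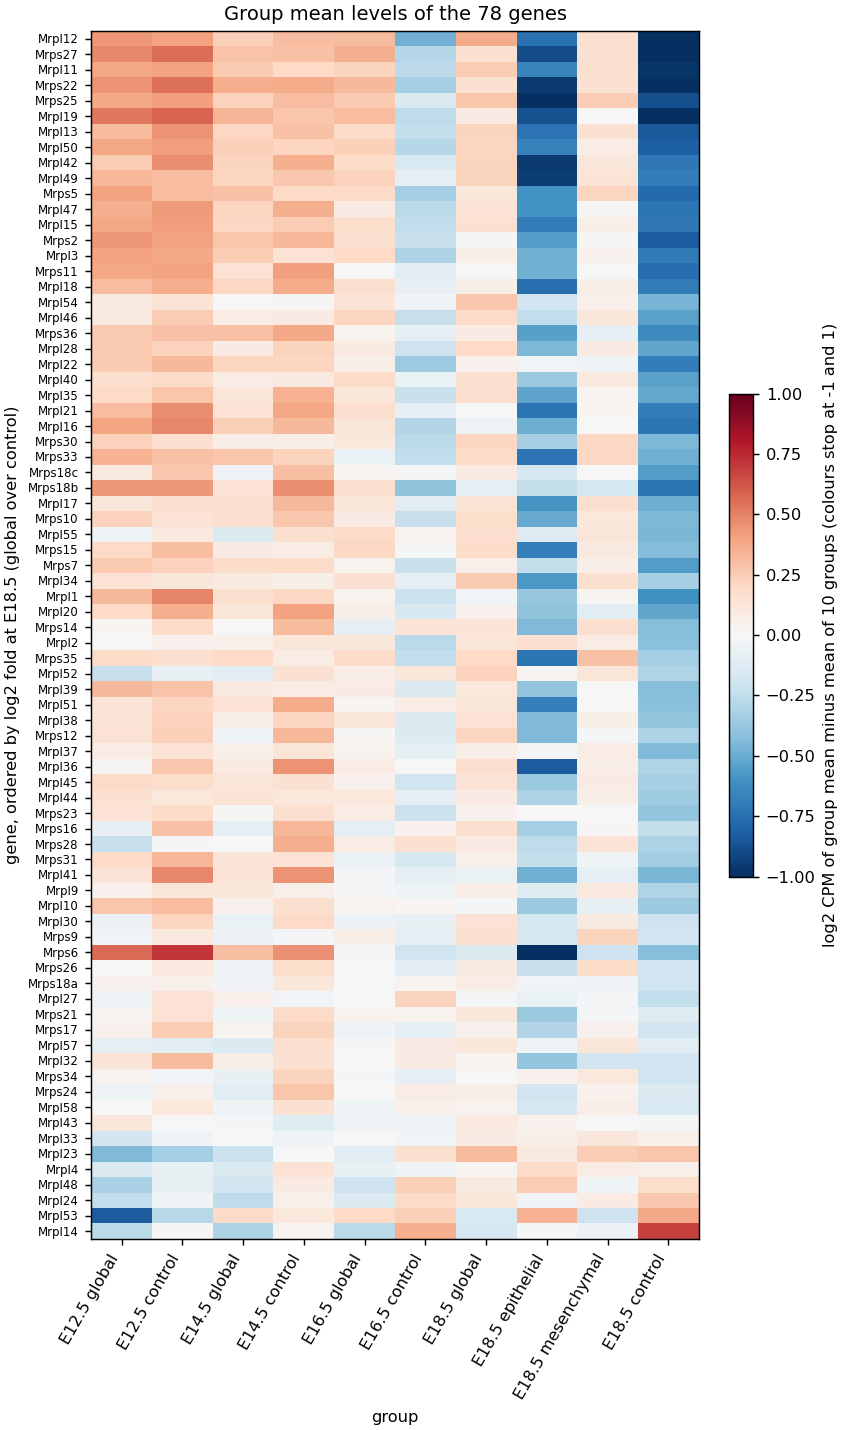
Group means of the 78 genes (log2 CPM minus the mean of the 10 groups, colours stopping at -1 and 1), with genes ordered from the largest log2 fold at E18.5, global over control, at the top. Most genes are lowest in the E18.5 control and epithelial columns, whereas Mrpl14 in the bottom row is highest in the E18.5 control.

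At E12.5 global Lin28A was not accompanied by a detectable change in these genes. Their summed level was 3603 ± 260 CPM in global lungs and 3787 ± 367 CPM in controls (SD, n = 3 each). None of the 78 was called by edgeR or DESeq2, whereas 0.12% of all genes were called higher and 0.104% lower. An unadjusted p under 0.05 was found for 4, each lower. The median log2 fold was -0.08, with 60 genes negative. It was 0.13 when control libraries 2 and 3 and global library 1, with the most heart muscle RNA, were left out together, which leaves 1 control.

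At E14.5 a few members were slightly lower in global lungs. The summed level was 3401 ± 168 CPM in global lungs (n = 4) and 3689 ± 178 CPM in controls (n = 3). A total of 7 genes fell, against 8.32% of all genes called lower, and none rose, against 4.42% called higher. For higher calls, 0 had an unadjusted p under 0.05 and DESeq2 also called 0. The members' share called lower, 9.0%, was thus near that of all genes. Their median log2 fold was -0.10, with 60 of the 78 negative. Unadjusted, 22 were lower at p under 0.05, and DESeq2 called 6 lower. Mrps16, a small-subunit protein shared with bacteria, had 28.6, 31.3, 31.3 and 31.8 CPM in global lungs and 42.1, 37.3 and 44.6 CPM in controls. The groups do not overlap, and the log2 fold was -0.43 ± 0.11 (adjusted p = 0.0123). Mrps24, related to bacterial S3 (-0.39 ± 0.12, adjusted p = 0.0349), and Mrps12, of the decoding centre (-0.37 ± 0.11, adjusted p = 0.0238), followed. Without control 3 and global 4 the count lower was 0, with Mrps16 at -0.39. It was 2 or 3 without any of the 3 controls or without global 1, 3 or 4. On leaving out 1 library at a time, Mrps16 stayed called in 6 of 7 fits, Mrps12 in 3 and Mrps24 in 1.

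At E16.5 the direction turned, and 24 of the 78 genes rose in global lungs (30.8%) while 3 fell, against 16.9% of all genes called higher and 20% called lower. The summed level was 3393 ± 53.2 CPM in global lungs and 2962 ± 149 CPM in controls (SD, n = 3 each), a ratio of 1.15. The median log2 fold was 0.19 over the members and -0.01 over all genes. The libraries did not overlap for 41 of the 78 that were higher in global lungs and 3 that were lower, whereas 27.6% of all genes were higher and 29.4% lower without overlap. Cell markers moved at the same stage. The summed lung epithelium markers were at 1206 to 1860 CPM in global lungs and 7589 to 11074 CPM in controls, the erythroid markers at 3416 to 4308 CPM in global lungs and 6620 to 14635 CPM in controls, and the leukocyte markers at 70.5 to 77.7 CPM in global lungs and 175 to 216 CPM in controls. The proliferation genes summed to 5270 to 5617 CPM in global lungs and 3295 to 4153 CPM in controls, and the part of these differences in the members' rise was not tested. When only the E16.5 groups entered the fit, 37 genes were called higher, and 17 to 19 were on leaving out 1 library at a time. The share of all genes called higher in these fits is not given here.

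Mrpl12 had 88.0, 92.4 and 89.1 CPM in global lungs and 45.2, 55.9 and 54.3 CPM in controls at E16.5. The groups are far apart, and its log2 fold of 0.79 ± 0.15 was the largest rise (adjusted p = 8.78e-05). Mrps22 had 34.1, 36.1 and 33.1 CPM in global lungs and 20.6, 20.6 and 24.3 CPM in controls (log2 fold 0.65 ± 0.15, adjusted p = 0.00101). Mrps27 had 47.0, 40.8 and 43.3 CPM in global lungs and 27.1, 27.4 and 29.3 CPM in controls (0.65 ± 0.12, adjusted p = 5.88e-05). The 3 genes that fell all belong to the large subunit: Mrpl14 (-0.63 ± 0.16, adjusted p = 0.00226), Mrpl48 (-0.45 ± 0.12, adjusted p = 0.00457) and Mrpl24 (-0.33 ± 0.10, adjusted p = 0.0115). The Mrpl24 call was lost without control 2, global 1 or global 2, with log2 folds of -0.24, -0.29 and -0.29, and 26.3% of its exon bases lie under Rrnad1.

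The change of the global effect between E14.5 and E16.5 was tested as a difference of differences. It was positive and called for 9 of the 78 genes and negative and called for none, against 4.04% and 3.83% of all genes. For negative calls, 0 had an unadjusted p under 0.05 and DESeq2 called 0. Mrps18b changed most (0.89 ± 0.20, adjusted p = 0.00631), followed by Mrpl12 (0.87 ± 0.20, adjusted p = 0.00791). The count was 4 without E14.5 control 3 and global 4 together. It fell to between 3 and 5 on leaving out 1 library at a time, namely E14.5 control 2 or 3, any E14.5 global library, or E16.5 control 1 or 2 or global 1 or 2. Between E12.5 and E14.5 no change of effect was called among the 78 by edgeR or DESeq2, with 1 at an unadjusted p under 0.05, against 0.0382% of all genes called positive and 0.00546% negative.

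**Figure D3:**
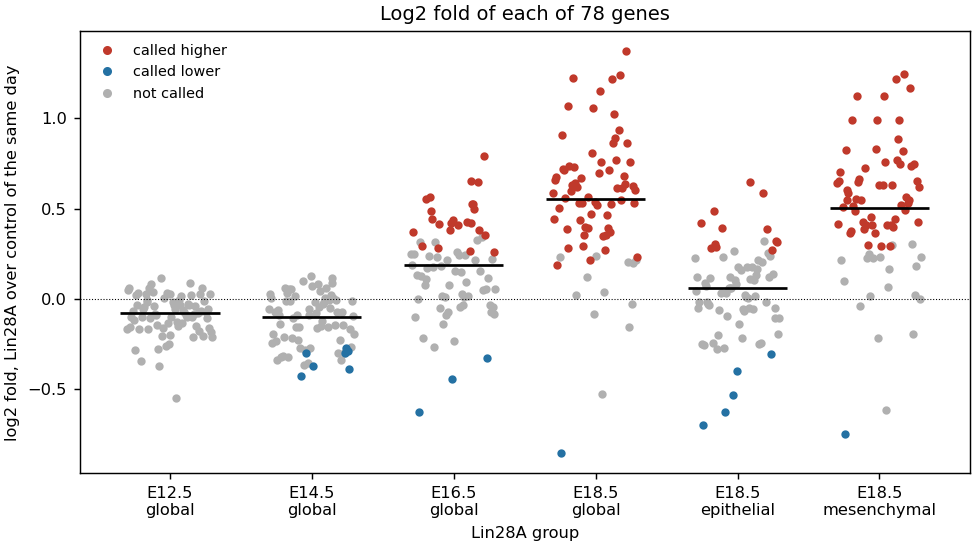
Log2 fold of each of the 78 genes, Lin28A over control of the same day, in the 6 comparisons, with called genes coloured and black bars at the medians. The points move from around 0 at E12.5 and E14.5 to a median of 0.55 in global and 0.50 in mesenchymal lungs at E18.5, and lie around 0.06 in epithelial lungs.

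At E18.5 most mitoribosomal protein genes were higher in global lungs. Of the 78 genes, 65 rose (83.3%) and 1 fell, whereas 32% of all genes were called higher and 32.6% lower. The summed level was 3469 ± 212 CPM in global lungs and 2393 ± 196 CPM in controls (SD, n = 5 each), a ratio of 1.45. Library by library the sums were 3231, 3474, 3293, 3738 and 3610 CPM in global lungs and 2315, 2247, 2228, 2476 and 2698 CPM in controls, without overlap. The median log2 fold was 0.55 over the members and -0.01 over all genes. For 54 of the 78 every global library lay above every control library and for 1 below, against 23.8% of all genes above and 24.6% below. Counts were 61 higher and 1 lower without the 3 libraries rich in Lars2, and 2 were lower without global 5.

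Both subunits rose to a like extent: 39 of the 49 genes named Mrpl and 26 of the 29 named Mrps were called higher, with median log2 folds of 0.55 and 0.56. Of the 48 genes with a bacterial ribosomal counterpart 39 rose, and of the 29 without one 25 rose, with medians of 0.59 and 0.53. The difference between these classes was not tested.

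Among large-subunit genes Mrpl12 rose most. It had 82.3, 95.5, 84.2, 122 and 81.1 CPM in global lungs and 34.7, 31.3, 30.5, 38.8 and 44.0 CPM in controls. Each global library lies well above the highest control, and the log2 fold was 1.37 ± 0.12 (adjusted p = 2.07e-11). Mrpl11, at the base of the stalk, had 55.2, 64.8, 51.9, 68.7 and 59.1 CPM in global lungs and 24.2, 23.3, 22.3, 27.6 and 30.7 CPM in controls (1.22 ± 0.10, adjusted p = 3.81e-12). The groups again do not overlap. Mrpl19 followed at 1.07 ± 0.09 (adjusted p = 2.1e-11).

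Among small-subunit genes Mrps27 had 36.2, 40.7, 37.1, 37.3 and 38.1 CPM in global lungs and 14.4, 12.3, 14.3, 18.8 and 19.5 CPM in controls (log2 fold 1.24 ± 0.09, adjusted p = 1.68e-12). Mrps22 had 31.0, 31.4, 26.9, 31.0 and 32.8 CPM in global lungs and 11.2, 9.52, 12.4, 15 and 16.9 CPM in controls (1.22 ± 0.12, adjusted p = 5.47e-10). In both genes the lowest global library is above the highest control. Of Mrps27's exon bases 24.2% lie under 6430562O15Rik on the other strand, and Mrps22 has no such overlap.

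Between E16.5 and E18.5 the global effect rose in most members, though the count called depended on the libraries kept. The difference of differences was called positive for 18 of the 78 genes and negative for none, against 6.98% and 3.58% of all genes. Of the 78, 76 were positive, and positive values were not counted over all genes. The median difference was 0.35 over the members and 0.06 over all genes, and 66.1% of the calls among all genes were positive. For negative calls, 0 had an unadjusted p under 0.05 and DESeq2 called 0. Mrps14, an S14 protein of the small subunit, changed most: its log2 fold was 0.56 ± 0.13 at E18.5 (adjusted p = 0.000582) and -0.22 ± 0.17 at E16.5, which did not pass (adjusted p = 0.351), with a difference of 0.78 ± 0.22 (adjusted p = 0.0199). That call was lost without E16.5 control 2 (0.65), without E16.5 global 1 (0.64) and without the 3 libraries rich in Lars2 (0.69). The count was 4 without those 3 libraries, between 8 and 11 without E16.5 control 2 or 3, E16.5 global 1 or 3, or E18.5 global 4, and 28 without E18.5 control 5. All 24 genes called higher at E16.5 were also called higher at E18.5, where they are 24 of 65. With 83.3% of the 78 called higher there, most of any 24 members would be included. The overlap was not counted over all genes. The libraries of these comparisons are separate, and across the 78 genes the log2 folds at the 2 stages had a Pearson r of 0.848 (Spearman 0.834). The points share gene length and level and are not independent replicates.

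Lungs with Lin28A in mesenchyme showed a like picture from 2 libraries. Of the 78 genes, 58 rose (74.4%) and 1 fell, against 27.3% of all genes called higher and 26.8% lower. The summed level was 3188 and 3519 CPM in the mesenchymal libraries, and in the controls it ranged from 2228 to 2698 CPM. The median log2 fold was 0.50 over the members and -0.02 over all genes. Every mesenchymal library lay above every control for 58 of the 78 and below for 3, against 29.7% of all genes above and 29.9% below. The count higher was 37 without mesenchymal library 2, when the lone library left is assumed to vary like the other groups, and 52 without the libraries rich in Lars2.

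Mrps27 had 36.0 and 39.8 CPM in mesenchymal lungs, with the control libraries given above all under 20 CPM, and a log2 fold of 1.24 ± 0.12 (adjusted p = 5.49e-10). Mrps22 had 28.3 and 32.9 CPM (1.22 ± 0.15, adjusted p = 8.49e-08) and Mrpl12 had 74.4 and 87.3 CPM (1.17 ± 0.15, adjusted p = 8.43e-08). The same control libraries stand behind the global and the mesenchymal comparison, so their values are given side by side and not as independent evidence.

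Lungs with Lin28A in epithelium stayed close to controls as a group, although Lin28a reached 625 to 1301 CPM there. The summed level was 2385, 2552 and 2487 CPM in epithelial lungs, within the range of the controls (2228 to 2698 CPM). Of the 78 genes, 12 rose (15.4%) and 5 fell (6.4%), against 17.9% of all genes called higher and 15.1% lower, so neither share was above that of all genes. The median log2 fold was 0.06, and -0.00 when libraries were scaled by total counts, under which 5 rose and 8 fell. The count higher was 7 without control 1, control 3, epithelial 1 or epithelial 3 and also without the libraries rich in Lars2, and 3 when only the compared groups were fitted. The count lower was 10 without epithelial 2. The labels do not say whether equal numbers pair the samples, and with the replicate number as a block 21 rose.

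The largest epithelial rise was that of Mrpl22, which lines the exit tunnel. It had 17.4, 19.1 and 20.5 CPM in epithelial lungs and 7.38, 10.6, 11, 13.4 and 17.3 CPM in controls. The lowest epithelial library is just above the highest control, and the log2 fold was 0.65 ± 0.15 (adjusted p = 0.00123), a call lost when only the compared groups were fitted (0.64). Mrpl2, of the peptidyl transferase region, had 52.0, 45.9 and 48.8 CPM in epithelial lungs and 37.6, 36.0, 24.3, 29.3 and 35.9 CPM in controls (0.59 ± 0.10, adjusted p = 4.71e-05). Mrps18b rose by 0.49 ± 0.13 (adjusted p = 0.00584), and its call was also lost in that fit (0.47).

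The largest epithelial falls were those of Mrpl14, Mrps6 and Mrpl36. Mrps6, an S6 protein, had 7.68, 7.27 and 7.07 CPM in epithelial lungs and 14, 10.4, 11.4, 10.2 and 10.9 CPM in controls. All epithelial libraries are below all controls, with a log2 fold of -0.62 ± 0.15 (adjusted p = 0.00217), while in global lungs it rose by 0.30 ± 0.13 (adjusted p = 0.0418). Mrpl36 had 14.6, 20.6 and 17.2 CPM in epithelial lungs and 25.4, 20.4, 25.4, 24.1 and 30.7 CPM in controls (-0.53 ± 0.13, adjusted p = 0.00203). One epithelial library overlaps the lowest control.

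**Figure D4:**
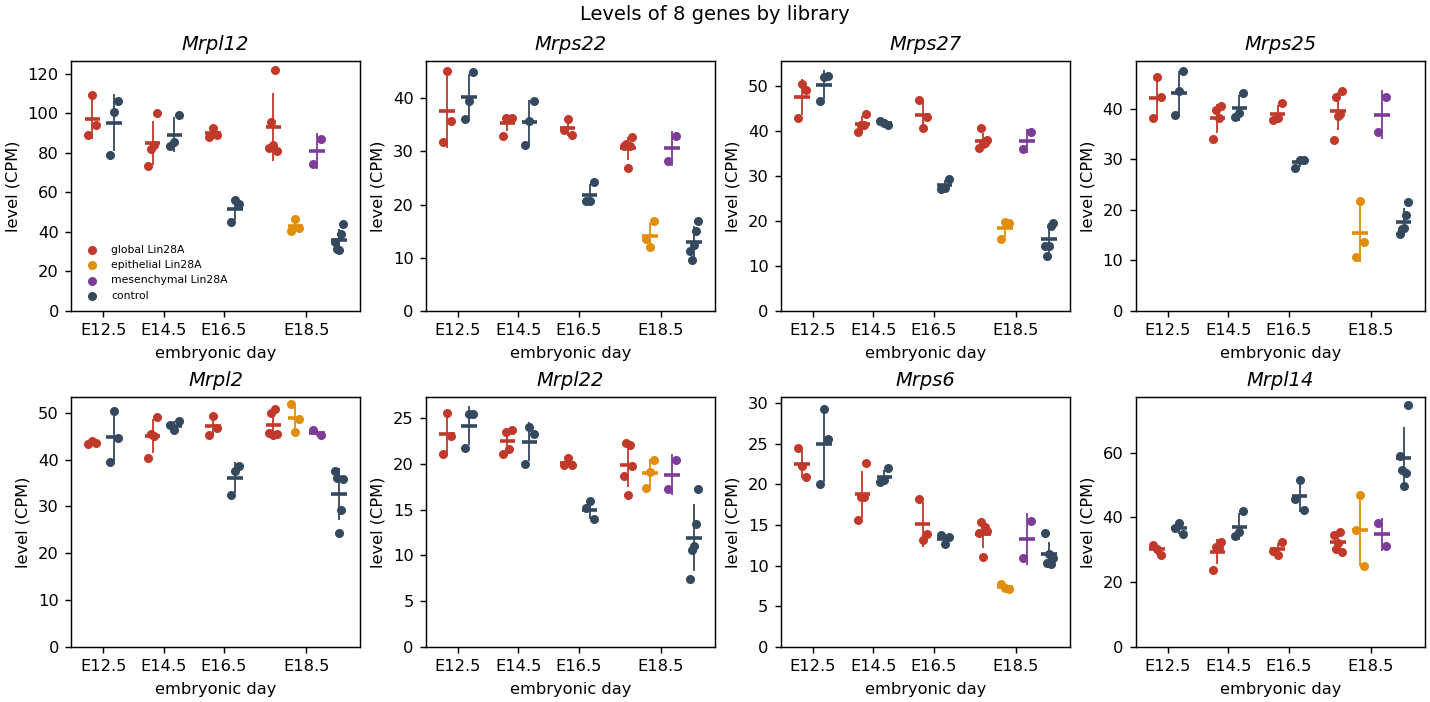
Levels (CPM) of 8 members in each library by embryonic day, with bars for means and 1 SD. Mrpl12, Mrps22, Mrps27 and Mrps25 are low in epithelial and control lungs at E18.5 and high in global and mesenchymal lungs, Mrpl2 and Mrpl22 are low at E18.5 in controls alone, Mrps6 is lowest in epithelial lungs, and Mrpl14 is highest in E18.5 controls.

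The groups were also compared directly at E18.5. In epithelial against mesenchymal lungs 47 of the 78 genes were lower and none higher, with 26.7% of all genes called lower and 26.4% higher, and the median log2 fold was -0.40. For higher calls, 1 had an unadjusted p under 0.05 and DESeq2 called 1. The count lower was 30 without mesenchymal 2, and 1 was higher without epithelial 2. In global against epithelial lungs 55 were higher and 1 lower, with 31.3% and 31.8% of all genes called, and the median was 0.47. Mrps25, a small-subunit protein with no bacterial counterpart, differed most in both. It had 33.9, 42.3, 38.5, 39.0 and 43.5 CPM in global lungs, 10.7, 21.6 and 13.5 CPM in epithelial lungs, 35.3 and 42.3 CPM in mesenchymal lungs and 15.1, 16.3, 16.4, 19.0 and 21.5 CPM in controls. Epithelial libraries overlap the controls and lie below all global and mesenchymal ones, with log2 folds of 1.37 ± 0.15 for global against epithelial (adjusted p = 3.08e-09) and -1.34 ± 0.17 for epithelial against mesenchymal (adjusted p = 1.75e-07). Of its exon bases 69.8% lie under Nr2c2 on the other strand.

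The single gene lower in global than in epithelial lungs was Mrpl4 (log2 fold -0.17 ± 0.07, adjusted p = 0.035). It had 65.9, 66.3, 67.6, 67.7 and 68.7 CPM in global lungs and 79.2, 75.4 and 72.2 CPM in epithelial lungs. That direction turned with total-count scaling (0.030), and the call was lost without global 1 or 2 or epithelial 1 or 2, while 2 genes were lower without epithelial 3. With total-count scaling the median of all genes moved to 0.12 in the global, 0.14 in the mesenchymal and -0.09 in the epithelial comparison with control, and to 0.20 in global against epithelial and -0.23 in epithelial against mesenchymal lungs. Relative to that median the members' median was 0.57, 0.53, 0.09, 0.46 and -0.40, in that order, against 0.56, 0.52, 0.08, 0.46 and -0.40 under the main scaling.

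The only member called lower in all 3 E18.5 comparisons with control was Mrpl14. Mrpl14, an L14 protein at the subunit interface and the docking site of the assembly factor MALSU1 in human ribosomes, had 34.6, 30.2, 32.1, 35.4 and 29.2 CPM in global, 36.0, 47.1 and 25.0 CPM in epithelial and 38.4 and 31.2 CPM in mesenchymal lungs at E18.5. Controls had 59.1, 54.7, 49.7, 53.6 and 74.6 CPM, above every transgenic library. The log2 folds were -0.85 ± 0.12 (adjusted p = 4.68e-07) in global, -0.70 ± 0.14 (adjusted p = 0.000366) in epithelial and -0.75 ± 0.17 (adjusted p = 0.000389) in mesenchymal lungs. Across stages its means in global lungs were 30.1 ± 1.62, 29.4 ± 3.85, 30.1 ± 2.1 and 32.3 ± 2.69 CPM from E12.5 to E18.5, and its means in controls were 36.6 ± 1.80, 37.1 ± 4.11, 46.5 ± 4.75 and 58.4 ± 9.68 CPM. Neither later control step passed the test, with log2 folds of 0.32 ± 0.16 (adjusted p = 0.108) and 0.33 ± 0.14 (adjusted p = 0.0691). Of its exon bases 11.2% lie under Tmem63b.

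**Figure D5:**
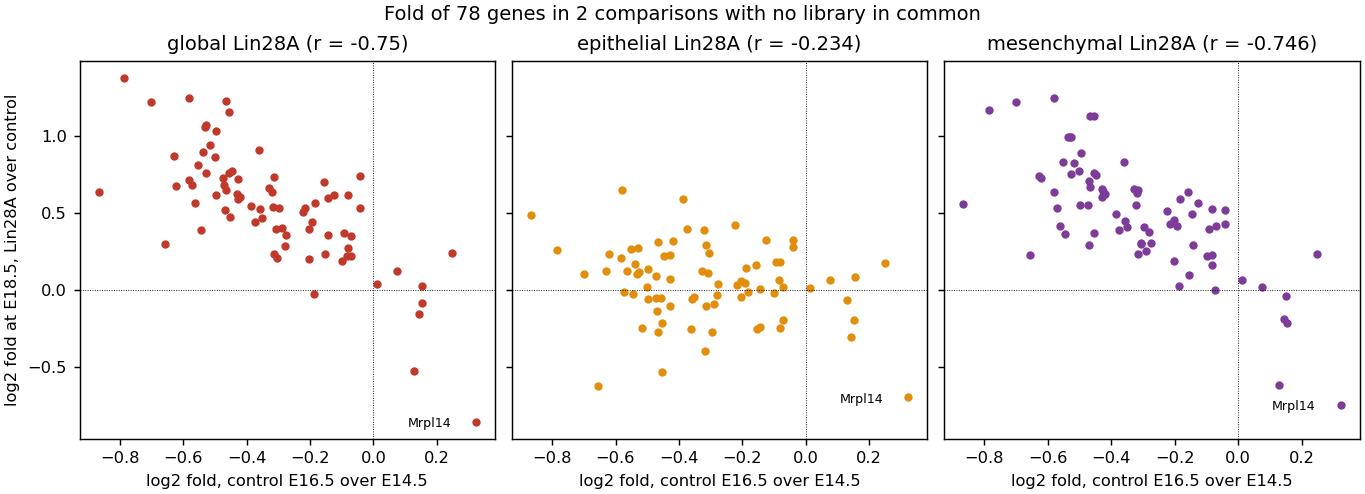
Log2 fold of the 78 genes at E18.5, Lin28A over control, against their log2 fold in control lungs, E16.5 over E14.5, 1 panel for each Lin28A group. Genes with the larger fall in controls lie higher for global (r = -0.75) and mesenchymal (r = -0.746) lungs, and far less so for epithelial lungs (r = -0.234), with Mrpl14 at the lower right of each panel.

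Members with a larger fall in controls between E14.5 and E16.5 tended to lie higher above control at E18.5 in global and mesenchymal lungs. Mrps18b, with the largest control fall, was an exception at 0.63 in global and 0.55 in mesenchymal lungs, near the members' medians. These comparisons have no library in common. Over the 78 genes Pearson's r was -0.75 (Spearman -0.72) for global, -0.746 (-0.701) for mesenchymal and -0.234 (-0.184) for epithelial lungs. These are descriptions across genes, which share length, level and the same fit, and the 3 panels share the E18.5 controls. Without E14.5 control 3 Pearson's r was -0.724, -0.725 and -0.264, and without E18.5 control 1 it was -0.747, -0.744 and -0.227, in that order. Without the 3 E18.5 libraries rich in Lars2 it was -0.723, -0.719 and -0.156, and these omissions were chosen after seeing the data.

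Members with roles apart from the core ribosome were read whatever their values. Of the 3 S18 paralogues, at E18.5 in global lungs Mrps18b rose by 0.63 ± 0.12 (adjusted p = 2.57e-05), Mrps18c by 0.64 ± 0.13 (adjusted p = 9.53e-05) and Mrps18a, which sits in the large subunit, by 0.27 ± 0.07 (adjusted p = 0.00115). The differences between them were not tested. Mrps30, which despite its name belongs to the large subunit, rose by 0.66 ± 0.09 (adjusted p = 9.05e-08). Mrpl58, a peptidyl-tRNA hydrolase that frees stalled ribosomes, rose by 0.19 ± 0.07 (adjusted p = 0.0246), a call lost with median-of-ratios scaling, DESeq2 and no filter on low counts (0.14, 0.14 and 0.17) and in the fit of these groups alone (0.19), and without control 3 or global 4 or 5 (0.15, 0.15 and 0.16). Mrps36, named for the ribosome but placed with the 2-oxoglutarate dehydrogenase complex, rose by 0.72 ± 0.16 (adjusted p = 0.000311).

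The 8 members called in none of the 6 comparisons with control were Mrpl23, Mrpl27, Mrpl32, Mrpl33, Mrpl43, Mrpl53, Mrps21 and Mrps34. Mrpl23, of the exit tunnel, averaged 7.21 ± 0.569 CPM in global lungs and 7.03 ± 1.48 CPM in controls at E18.5 (log2 fold 0.02 ± 0.16, adjusted p = 0.904). Mrps34 had 13.2 to 22.1 CPM in global lungs and 13.3 to 17.9 CPM in controls, which overlap (0.21 ± 0.10, adjusted p = 0.085). It was called without global 1 (0.30) and with total-count scaling (0.34), and 77.8% of its exon bases lie under Nme3 and Mapk8ip3.

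The rest of the mitochondrial translation machinery, from lists of textbook genes, was read in the same E18.5 comparisons. Counts of rises and falls are for global, epithelial and mesenchymal lungs in turn, each against control. Of all genes, 32%, 17.9% and 27.3% were called higher and 32.6%, 15.1% and 26.8% lower in that order. These shares stand beside the E18.5 counts of every list from here on, and no list was tested as a set. Of 5 mitoribosomal proteins whose names fall outside the rule (Dap3, Ptcd3, Aurkaip1, Chchd1 and Gadd45gip1), 5, 0 and 3 rose and 0, 1 and 0 fell. The one with the largest change was Ptcd3, a pentatricopeptide protein of the small subunit, at 1.04 ± 0.10 in global, -0.37 ± 0.12 in epithelial and 1.18 ± 0.13 in mesenchymal lungs (adjusted p = 3.1e-10, 0.018 and 6e-09). Of 15 translation factors, 11, 0 and 11 rose and 0, 5 and 0 fell. Tsfm, the exchange factor of the elongation factor Tufm, rose by 0.90 ± 0.10 in global lungs (adjusted p = 6.3e-09), Lrpprc, which stabilises mitochondrial mRNAs, rose by 1.02 ± 0.10 in mesenchymal lungs (adjusted p = 2.5e-09) and Taco1, an activator of Cox1 translation, fell by 0.56 ± 0.19 in epithelial lungs (adjusted p = 0.027).

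Of 26 factors for assembly and rRNA modification, 18, 6 and 15 rose and 2, 6 and 1 fell. Rcc1l rose by 1.12 ± 0.12 (adjusted p = 1.1e-09) and Mpv17l2 fell by 0.84 ± 0.12 (adjusted p = 4.5e-07) in global lungs, while in epithelial lungs Mpv17l2 rose by 0.75 ± 0.13 (adjusted p = 5.1e-05) and Mettl15, an rRNA methyltransferase, fell by 0.87 ± 0.20 (adjusted p = 0.0011). Of 20 genes for charging of mitochondrial tRNAs, 15, 0 and 14 rose and 1, 5 and 1 fell. Yars2, the tyrosyl enzyme, rose by 1.30 ± 0.10 in global lungs (adjusted p = 3.2e-12). The call lower in mesenchymal lungs and 1 of those in epithelial lungs was Lars2, the leucyl enzyme, at -3.71 ± 1.4 and -3.62 ± 1.1 (adjusted p = 0.025 and 0.016), and control libraries 1 and 2 hold the highest Lars2 levels of the control group. Of 10 genes for tRNA modification, 7, 0 and 6 rose and 0, 4 and 0 fell, led by Pus1, a pseudouridine synthase, at 1.20 ± 0.14 in global lungs (adjusted p = 1.3e-08).

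The mRNAs that the mitoribosome translates gave another picture. Of the 13 protein genes of mitochondrial DNA, 7 were tested and the others were not analysed here. In global lungs 2 rose and 1 fell, in epithelial lungs 7 rose, and in mesenchymal lungs 2 rose and 2 fell. Median log2 folds were 0.16, 0.78 and 0.09. mt-Nd1, a complex I subunit, rose by 0.88 ± 0.10, 1.01 ± 0.11 and 0.73 ± 0.13 (adjusted p = 7.7e-09, 5.7e-08 and 1.9e-05), whereas mt-Nd6 was at -0.46 ± 0.19, 0.90 ± 0.22 and -1.06 ± 0.27 (adjusted p = 0.038, 0.0021 and 0.0016). mt-Nd6 is read from the other strand than its neighbour mt-Nd5, which unstranded counting would mix where they meet.

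Of 12 genes for expression and upkeep of mitochondrial DNA, 10, 4 and 10 rose and 1, 3 and 1 fell. Tfam, which packs mitochondrial DNA and starts its transcription, rose by 1.07 ± 0.10, 0.55 ± 0.12 and 0.97 ± 0.13 (adjusted p = 1.6e-10, 0.00041 and 2.2e-07), and Polg, the catalytic subunit of the mitochondrial DNA polymerase, fell by 0.76 ± 0.07, 0.43 ± 0.08 and 0.68 ± 0.09 (adjusted p = 3e-11, 7.4e-05 and 2.6e-07). Of 11 nuclear regulators of such genes, 6, 3 and 7 rose and 1, 2 and 1 fell. Mycn, a growth-related transcription factor, was at 2.92 ± 0.18, 0.36 ± 0.21 and 2.44 ± 0.21 (adjusted p = 4.6e-14, 0.18 and 1.4e-10). Ppargc1a, a coactivator of mitochondrial biogenesis, was at 0.09 ± 0.16, 2.11 ± 0.17 and 0.06 ± 0.21 (adjusted p = 0.63, 1.7e-10 and 0.82), and Ppargc1b fell by 1.25 ± 0.30 in epithelial lungs (adjusted p = 0.0018).

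Further lists give the setting. Of 82 nuclear genes of oxidative phosphorylation, 46, 5 and 34 rose and 5, 2 and 4 fell, with medians of 0.29, -0.01 and 0.23. Of 78 cytosolic ribosomal protein genes, many of which have near-identical copies in the genome, 66, 5 and 53 rose and none fell in these fits, with medians of 0.52, 0.11 and 0.45.

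Proliferation genes and cell markers also differed between these E18.5 groups. The 23 proliferation genes rose in 23, 2 and 23 cases, with summed levels of 4334 to 5380 CPM in global, 1281 to 1770 CPM in epithelial, 4602 to 4995 CPM in mesenchymal and 926 to 2100 CPM in control lungs. The 5 lung epithelium markers summed to 1210 to 3975 CPM in global, 9409 to 15290 CPM in epithelial, 2251 to 5422 CPM in mesenchymal and 14010 to 21058 CPM in control lungs. The 5 lung mesenchyme markers summed to 1745 to 2232 CPM in global and 2007 to 2164 CPM in epithelial lungs. They summed to 1785 to 1905 CPM in mesenchymal and 2142 to 3044 CPM in control lungs. The 6 leukocyte markers summed to 69.1 to 105 CPM in global, 328 to 590 CPM in epithelial, 91.1 to 119 CPM in mesenchymal and 421 to 895 CPM in control lungs, and 6, 0 and 6 of them fell. The 15 heart muscle markers summed to 135 to 226 CPM in global, 224 to 418 CPM in epithelial, 179 to 191 CPM in mesenchymal and 320 to 1247 CPM in control lungs, and 10, 0 and 2 fell, with Nppb at 0 in the mesenchymal libraries. The 9 erythroid markers summed to 1233 to 3236 CPM in global lungs, to 24448, 3471 and 4376 CPM in the epithelial libraries, to 1753 to 2254 CPM in mesenchymal lungs and to 4316 to 9838 CPM in control lungs, so that epithelial library 1 stands apart. The part of these differences in the members' levels was not tested.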

How the data were processed

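Poly(A) RNA-seq counts of whole embryonic mouse lungs were read from 34 libraries in 10 groups. The authors deposited raw counts by gene and library. The submitters' processing notes list bcl2fastq 2.17.1.14, cutadapt, STAR 2.4.2a, HTSeq 0.6.1p1, DESeq2 1.10.1 and the build GRCm38. What each tool did, the annotation release and the strandedness are not given in the sources used here. A second deposited table, of normalized values, was not used. No gene in the count table has fewer than 6 counts in its highest library. One column headed Wt2 was matched by day and number to the library titled Wt1.

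Symbols and exons came from GENCODE M21 (21754 of 21789 identifiers found). The tests used edgeR 4.0.16 in R 4.3.3: filterByExpr, TMM scaling, and 1 robust quasi-likelihood fit of all libraries with 10 group means (24 residual degrees of freedom). In each of 14 comparisons p-values were adjusted over 18319 genes by Benjamini-Hochberg, with calls under 0.05. Each adjusted p in the text is from this test unless DESeq2 (1.42.0) is named. The fit was tested on simulated data for E16.5 global against control, with 16935 genes tested. Of 100 genes given a 1.5-fold difference 12 were called, and of 100 given a 2-fold difference 72 were called. False calls numbered 12. Differences of 1.5-fold were thus mostly missed in that simulation. It changed only 200 genes and gave every gene the same spread, whereas 3105 genes were called higher and 3667 lower in the data. Its shares therefore do not carry over to the members. Some members with smaller differences were called at E16.5, such as Mrpl48 at -0.45 and Mrpl24 at -0.33. A member that was not called may still differ. No library duplicated another (chi-square per gene at least 5.56 within groups).

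The members and lists were chosen with earlier results of these data known. Named were the members with the 3 highest and lowest levels per length, the 3 largest rises and falls of each comparison with control and each control step, the largest changes of the other comparisons, members of particular role, and list genes with the largest change. Others were named after their values were seen. Alternatives were total-count and median-of-ratios scaling, no filter, DESeq2, a fit of the compared groups alone, the replicate number as a block, and leaving out each library or the libraries in doubt.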

Additional observations from a re-analysis of the deposited data

Results flagged for a closer look

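Single libraries stood apart for some members. In E14.5 global lungs Mrps22 was at 33.0 CPM in library 1 and Mrps34 at 19.2 CPM in library 3, each set off from the other libraries of its group. In E18.5 global lungs Mrpl52 was at 87.8 CPM and Mrps12 at 43.7 CPM in library 4, above the other libraries. The test for a distant library covered 31 items, nearly all of them named members, in the 3 groups of 4 or 5 libraries and gave 4 such cases. For a single item in a single group chance gives about 1 case in 20. A few such cases therefore arise by chance alone among so many items and groups.

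Of the effects called different between groups or stages by a direct test, the largest in each comparison and direction follow. Among 9 members called for E16.5 against E14.5 it was that of Mrps18b, whose log2 fold of global over control was higher at E16.5 than at E14.5 by 0.89, and among 18 called for E18.5 against E16.5 that of Mrps14, higher at E18.5 than at E16.5 by 0.78. Mrps25 was higher in global than in epithelial lungs by 1.37 and had a log2 fold of -1.34 in epithelial over mesenchymal lungs. Mrpl4 had a log2 fold of -0.17 in global over epithelial lungs.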

How the results depend on the processing

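The direction of the E16.5 rise, of the E18.5 rises in global and mesenchymal lungs and of the later control falls held under every alternative run, while counts moved as follows. With median-of-ratios scaling 2 genes were lower in global and 2 in mesenchymal lungs against control at E18.5, 1 was lower in control E14.5 against E12.5, 1 higher in control E18.5 against E16.5 and 1 higher in epithelial against mesenchymal lungs. With DESeq2 these were 2, 2, 2, 1 and 1, and 1 was higher in control E14.5 against E12.5. With total-count scaling 2 were lower at E14.5, 5 higher and 8 lower in epithelial lungs, 3 and 30 showed a larger global effect at E16.5 than E14.5 and at E18.5 than E16.5, none was lower in global than epithelial lungs, and Mrpl4 turned to 0.030 there. Without the filter 7 were higher in epithelial lungs, 3 had a larger effect at E16.5 than E14.5 and 0 were lower in global than epithelial lungs. Fits of the compared groups alone gave 4 lower at E14.5, 37 higher at E16.5, 3 higher in epithelial lungs, 1 higher in control E16.5 against E14.5, 28 with a larger effect at E16.5 than E14.5 and 0 lower in global than epithelial lungs. The replicate number as a block gave 12 lower at E14.5, 21 higher in epithelial lungs, 1 higher and 2 lower in control E14.5 against E12.5, and 24 and 28 with a larger effect at E16.5 and E18.5 than at the stage before. It changed no other count by over 1.5 times, and the numbers are not taken to pair the samples, since deviations of same-numbered libraries correlated between -0.227 and 0.262 over 19 pairs, 6 of them over 0.1. Without both E14.5 libraries in doubt 0 were lower at E14.5 and 4 had a larger effect at E16.5 than E14.5. Without the 3 E18.5 libraries rich in Lars2, chosen after seeing the data, 7 were higher in epithelial lungs and 4 had a larger effect at E18.5 than E16.5.

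Leaving out 1 library at a time gave 2 to 8 lower at E14.5, 17 to 19 higher and 2 to 3 lower at E16.5, 62 to 67 higher and 1 to 2 lower in global, 37 to 61 higher in mesenchymal, and 7 to 13 higher and 4 to 10 lower in epithelial lungs at E18.5. Control steps gave 0 to 2 higher for E14.5, 28 to 43 lower for E16.5, and 32 to 51 lower and 0 to 1 higher for E18.5. The change of effect from the stage before gave 3 to 9 for E16.5 and, for E18.5, 8 to 28. Epithelial against mesenchymal lungs gave 30 to 47 lower and 0 to 1 higher, and global against epithelial 52 to 56 higher and 0 to 2 lower. Of 1274 values of named members under alternatives, 1192 stayed on the same side of the threshold, 68 lost and 13 gained a call. A further 1, called in at least 1 of the fits, turned. Changes of sign in values called in neither fit were not counted. An example is Mrpl12 in E12.5 global lungs, at -0.09 to 0.12 on leaving out 1 library at a time.

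Total-count scaling also moved the share of higher genes among all calls: 61.1% against 50.4% with the main scaling in mesenchymal, 43.4% against 54.2% in epithelial and 41.0% against 53.7% in E12.5 global lungs, 37.0% against 47.0% in control E18.5 over E16.5, 78.5% against 66.1% in the change of effect at E18.5, 35.1% against 49.7% in epithelial over mesenchymal and 61.1% against 49.6% in global over epithelial lungs. Depth limits Mrpl53, with 3 to 20 counts per library.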
